A study of Rattus norvegicus with 11 samples.

Results

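The starting rat embryonic stem cells of a hypoblast conversion experiment were compared between both ways of growing them, on feeder cells and without. Of the 11 Affymetrix Rat Gene 1.0 ST arrays of the study, 2 hold these day 0 cells, 1 array for each culture, and they were chosen by their labels. All cells came from the line DAc2. The feeder culture grew on layers of mouse embryonic fibroblasts in N2B27 medium whose inhibitors were PD0325901 at 0.5 µM and CHIR99021 at 3 µM. The feeder-free culture grew on laminin in N2B27 medium that held CHIR99021 at the same 3 µM, more PD0325901 (2 µM), and human BMP4 (5 ng/mL). Feeder layer, PD0325901 dose, BMP4 and laminin change together between these cultures, so their parts in any difference cannot be told apart. The other 9 arrays hold cells after 7, 17 and 32 days in a progenitor medium with LIF, EGF, PDGF and 2% serum. There the arm that began on feeders has 1 array a day and the feeder-free arm has 2. All values are RMA expression values on the log2 scale. A difference is the feeder value minus the feeder-free value unless said otherwise.

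CHIR99021 blocks the kinase GSK3, which leaves beta-catenin free to drive Wnt target genes. PD0325901 blocks MEK, the kinase that activates ERK, and pluripotent rodent cells are kept from differentiating when ERK activity is low. ERK switches on genes for its own brakes, among them the Sprouty and dual-specificity phosphatase genes. BMP4 acts through receptor kinases and SMAD proteins and switches on the Id genes, which encode inhibitors of differentiation factors. Embryonic fibroblasts used as feeders secrete matrix and growth factors.

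With 1 array a side, the day 0 difference has no replicate of its own. Its spread was taken from the feeder-free arm, where days 7, 17 and 32 each have a pair of arrays. The labels name them biological replicates, but give no word on separate cultures. The p values therefore measure the spread of those pairs, which may be technical, and assume that the stem cell arrays vary in the same way. The day 0 arrays correlated at 0.968 across 14506 genes, and the pairs at 0.997 (day 7), 0.998 (day 17) and 0.998 (day 32). The median gene differed by 0.26 in size between the day 0 arrays and by 0.13, 0.09 and 0.10 within the pairs of days 7, 17 and 32. Below, a gene is said to pass if it differed by at least 1 on the log2 scale with an adjusted p under 0.05 in limma. At day 0, 1064 genes passed, 570 higher and 494 lower on feeders, or 7.33% of all genes tested (3.93% higher and 3.41% lower). All 1064 genes that differed by at least 1 also had an adjusted p under 0.05, so size alone set the list. Differences of at least 1 numbered 2 within the day 7 pair, 1 within the day 17 pair and 0 within the day 32 pair.

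**Figure D1:**
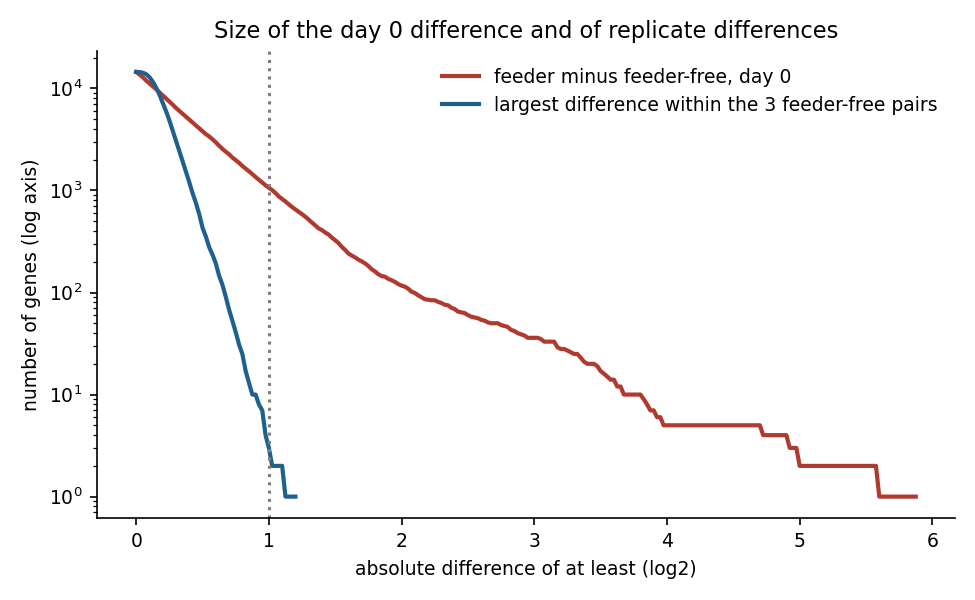
Number of genes (vertical log axis) whose absolute difference is at least the value on the horizontal axis (log2), for feeder minus feeder-free at day 0 and for the largest difference within the 3 feeder-free pairs. At the dotted line at 1 the day 0 curve stands at 1064 genes, and the largest pair difference of any gene was 1.20.

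A pair of features of the arrays may bear on the values below, and their part in any single gene was not tested. The first is a difference between the arms that stayed the same on all days. Of the 1064 genes, 116 differed by at least 1 with the same sign on days 0, 7, 17 and 32, and in 78 of them the 4 differences lay within 0.5 of each other. Tomm40, a mitochondrial import channel gene chosen here after its values were seen, lay between 12.29 and 12.56 on the 4 feeder-arm arrays and between 14.05 and 14.46 on the 7 feeder-free arrays. Rpl22, a ribosomal protein gene chosen in the same way, lay between 12.99 and 13.42 on the feeder-arm arrays and between 14.72 and 15.08 on the feeder-free arrays. No labelling or scanning batch is given in the labels, so a batch of arrays and the culture arm cannot be told apart. The second feature is a higher level of fibroblast genes on the feeder array, given below with its values. To set lasting differences apart, a contrast was tested as well: the day 0 difference minus the mean difference of days 17 and 32. In it 665 genes passed (4.58%), 2.35% of all genes higher and 2.23% lower, and 425 of them had also passed at day 0 with the same sign (2.93%), 250 higher (1.72%) and 175 lower (1.21%). The contrast holds the day 0 difference itself, so passing in it is no second test of a gene that passed at day 0. Of the genes that passed at day 0, 428 of 1064 passed in the contrast in either direction (40.2%), 252 of the 570 higher ones (44.2%) and 176 of the 494 lower ones (35.6%).

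Both cultures carried the stem cell markers. All 8 measured of the 10 markers (Zfp42 and Sall4 had no named row) lay above 8.10 on both arrays, the level below which 95% of the values of olfactory and vomeronasal receptor genes lay. Pou5f1, which encodes Oct4, stood at 14.07 on feeders and 14.93 without them, and Nanog at 13.35 on feeders and 13.92 without them. Both genes were lower on feeders by less than 1: Pou5f1 by 0.86 ± 0.15 (SE, limma adjusted p = 0.000588) and Nanog by 0.56 ± 0.22 (limma adjusted p = 0.0737). The difference of Pou5f1 was of similar size after conversion, at -0.82 on day 17 and -0.95 on day 32. For Nanog it was 0.43 and -0.26 on those days.

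More targets of ERK signalling passed higher than lower on feeders, in the culture with the lower PD0325901 dose. Of 26 targets 9 passed higher and 1 lower, against 3.93% and 3.41% of all genes, and the median difference was 0.36, against -0.06 for all genes. Dusp6, a phosphatase that inactivates ERK, stood at 11.19 on feeders and at 7.52 without them, a difference of 3.67 ± 0.16 (SE, limma adjusted p = 3.27e-09). The feeder-free value lay below 8.10, at the level of silent receptor genes. Etv4, an ETS transcription factor downstream of FGF and ERK, had 11.94 on feeders and 8.44 without them (3.49 ± 0.17), and its relative Etv1 had 12.75 on feeders and 10.15 without them (2.61 ± 0.16). Ccnd1, cyclin D1, stood at 11.50 on feeders and 8.76 without them (2.73 ± 0.16).

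Several brakes on the pathway passed higher. Spred1, which blocks RAF activation, had 12.12 on feeders and 9.86 without them (2.27 ± 0.15). Spry1 had 11.07 on feeders and 9.01 without them (2.06 ± 0.14), Spry4 had 11.40 on feeders and 10.03 without them (1.37 ± 0.15), and the phosphatase gene Dusp5 had 11.75 on feeders and 9.73 without them (2.03 ± 0.15). Other brakes did not pass: Spry2 differed by 0.42 ± 0.14, Dusp4 by 0.62 ± 0.15 and Spred2, with the opposite sign, by -0.38 ± 0.16. The immediate early genes Egr1 and Fos did not pass either, where Egr1 differed by 0.32 ± 0.16 (limma adjusted p = 0.148) and Fos by 0.15 ± 0.15 (limma adjusted p = 0.513). Etv5, close in sequence family to Etv4, differed by 0.40 ± 0.16 and did not pass. Myc was the 1 target that passed lower, at 9.17 on feeders and 10.73 without them (-1.56 ± 0.15, limma adjusted p = 4.28e-06). In the contrast with days 17 and 32, 7 of the 9 higher genes and Myc also passed, while Spry4 and Ier3 did not, against 44.2% of all higher and 35.6% of all lower genes.

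All BMP targets that passed were lower on feeders, in the culture without BMP4. Of 18 measured targets 5 passed lower and 0 higher, against 3.41% and 3.93% of all genes, and the median difference was -0.57, against -0.06 for all genes. Id1 showed the largest difference, at 9.33 on feeders and 12.93 without them (-3.60 ± 0.14, limma adjusted p = 1.75e-09). Id2 stood at 10.64 on feeders and 12.43 without them (-1.79 ± 0.17). The homeobox genes Dlx5 and Msx2, known targets of BMP, had 8.37 and 8.56 on feeders and 10.44 and 10.31 without them. Bambi, a pseudoreceptor that dampens the pathway and is itself induced by it, stood at 9.97 on feeders and 11.10 without them (-1.13 ± 0.16). All 5 genes also passed in the contrast, which uses their day 0 values again, against 35.6% of all lower genes. The Id genes did not share 1 direction. Id3 stood at 11.66 on feeders and 11.09 without them (0.57 ± 0.14, limma adjusted p = 0.00686), the opposite sign to Id1. The inhibitory SMAD genes Smad6 and Smad7 differed by -0.59 ± 0.14 and -0.54 ± 0.16 and did not pass on size. Among 16 genes of the BMP pathway itself 1 passed: the receptor gene Bmpr1a had 12.70 on feeders and 13.74 without them (-1.04 ± 0.15). The Bmp4 transcript on the arrays, as distinct from the BMP4 added to the medium, had 12.61 on feeders and 12.26 without them.

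**Figure D2:**
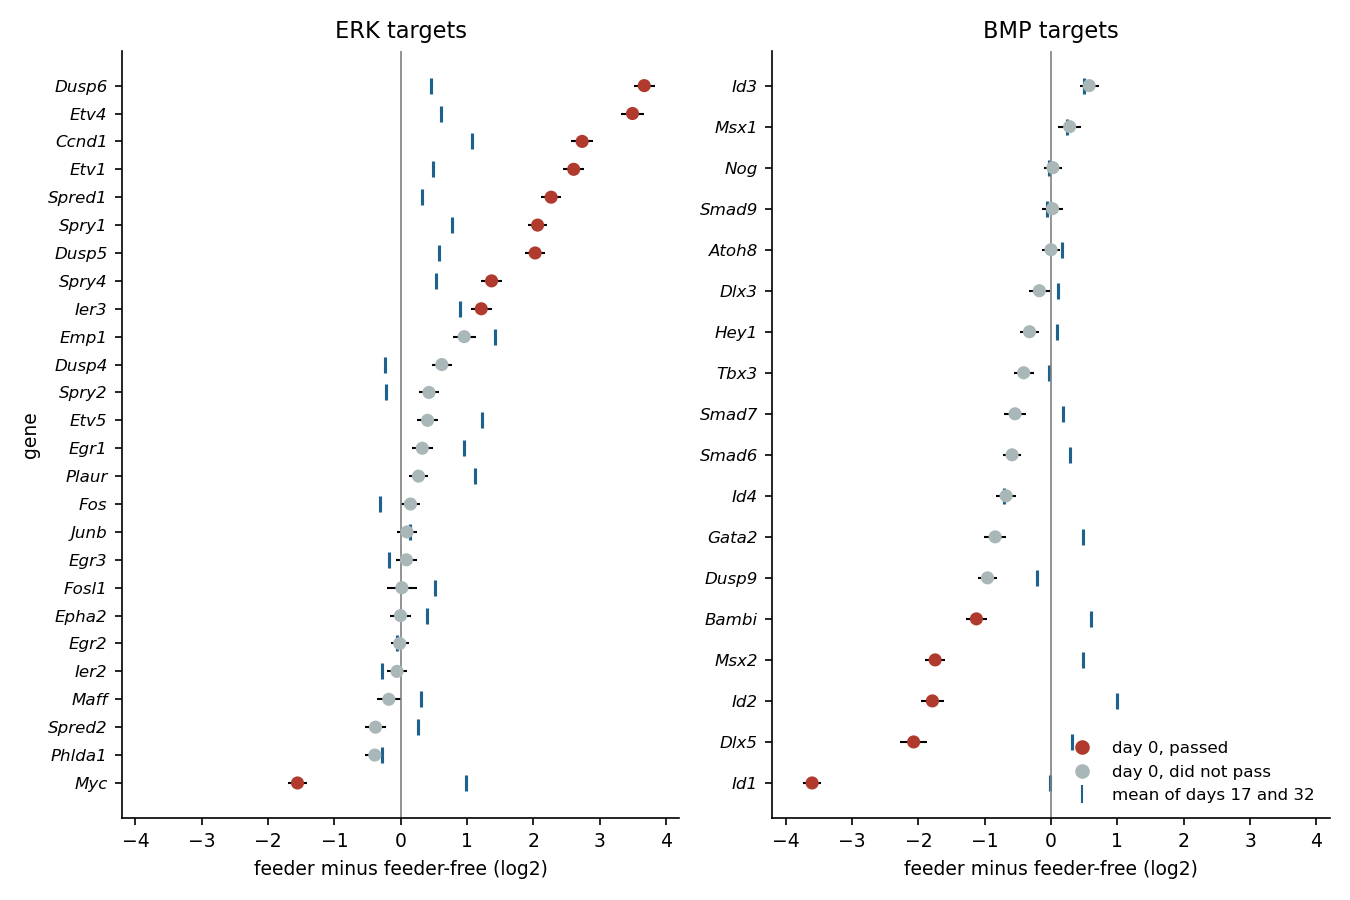
Feeder minus feeder-free difference (log2, horizontal axis) of every measured ERK target (left) and BMP target (right). Circles are day 0 with the SE of the limma fit as bars, red where the gene passed, and blue ticks are the mean of days 17 and 32. The 9 passing ERK targets on the right side run from Ier3 at 1.21 to Dusp6 at 3.67, and the 5 passing BMP targets on the left side from Bambi at -1.13 to Id1 at -3.60.

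Promoters of 2 BMP and 2 ERK targets are shown because the BMP pair was lower and the ERK pair higher on feeders. Each runs from 250 bases before to 50 bases after the RefSeq start of the gene in the assembly GRCr8. The windows are chr3:161671314-161671613, plus strand for Id1, chr6:47470946-47471245, minus strand for Id2, chr7:35979354-35979653, plus strand for Dusp6 and chr3:124436980-124437279, plus strand for Spred1. Capitals mark matches, on either strand, to the TATA box letters TATAAA, to a BMP-responsive SMAD motif spelled GGCGCC here, or to the ETS core with its flank, searched as CCGGAA. A match describes the letters and is no evidence of binding. No matches overlap in these windows.
Id1: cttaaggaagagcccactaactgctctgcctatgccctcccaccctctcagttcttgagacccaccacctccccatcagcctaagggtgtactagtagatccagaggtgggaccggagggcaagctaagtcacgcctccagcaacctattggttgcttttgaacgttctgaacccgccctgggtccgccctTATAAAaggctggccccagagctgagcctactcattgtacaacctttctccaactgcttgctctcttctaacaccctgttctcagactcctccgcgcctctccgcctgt
Id2: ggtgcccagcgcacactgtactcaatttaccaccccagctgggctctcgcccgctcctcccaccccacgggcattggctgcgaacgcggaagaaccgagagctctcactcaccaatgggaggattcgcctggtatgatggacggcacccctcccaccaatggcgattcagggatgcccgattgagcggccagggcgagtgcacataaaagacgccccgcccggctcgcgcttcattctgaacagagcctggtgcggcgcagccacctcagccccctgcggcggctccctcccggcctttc
Dusp6: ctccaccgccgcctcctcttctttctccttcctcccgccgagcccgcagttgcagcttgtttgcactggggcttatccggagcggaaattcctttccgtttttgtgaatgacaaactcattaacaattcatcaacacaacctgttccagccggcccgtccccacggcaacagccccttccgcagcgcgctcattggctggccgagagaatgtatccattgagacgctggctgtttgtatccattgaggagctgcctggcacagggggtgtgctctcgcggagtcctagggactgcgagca
Spred1: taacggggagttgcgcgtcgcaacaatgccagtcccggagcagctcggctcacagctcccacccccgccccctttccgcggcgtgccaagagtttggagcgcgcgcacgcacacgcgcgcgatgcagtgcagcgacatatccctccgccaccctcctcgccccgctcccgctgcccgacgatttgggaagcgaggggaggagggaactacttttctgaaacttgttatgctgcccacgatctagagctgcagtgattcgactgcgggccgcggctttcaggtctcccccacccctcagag
Of 33469 RefSeq promoter windows of this length 14.2% held the TATA letters, 11% the SMAD letters and 15% the ETS letters. Id1 held 1 match to TATAAA, at position -59 from its start, and 0 matches to the other motifs. The windows of Id2, Dusp6 and Spred1 held 0 matches to all 3. The share of G and C was 55.7% in Id1, 65.3% in Id2, 57.7% in Dusp6 and 65% in Spred1.

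Most fibroblast genes were higher on feeders. Of 23 measured genes of the list 14 passed higher and 0 lower, against 3.93% and 3.41% of all genes, and the median difference was 1.25, against -0.06 for all genes. Postn, periostin, stood at 11.79 on feeders and at 6.80 without them (4.99 ± 0.15, limma adjusted p = 1.6e-10). Col1a1 and Col1a2, the chains of type I collagen, had 13.13 and 11.84 on feeders and 9.96 and 9.33 without them. Prrx1, a transcription factor of limb and connective tissue mesenchyme, had 11.78 on feeders and 8.50 without them (3.27 ± 0.15). Fbln2, Fstl1, Serpinf1 and Fbn1, genes of secreted or matrix proteins, differed by 3.35 ± 0.16, 3.15 ± 0.17, 2.82 ± 0.17 and 2.29 ± 0.15. Col3a1 had 10.14 on feeders and 9.07 without them (1.07 ± 0.17), and Thy1 had 8.83 on feeders and 8.12 without them (0.70 ± 0.17, which did not pass on size).

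All 10 fibroblast markers were higher on feeders, and their summed level was 14.51 on feeders and 11.97 without them on the log2 scale. On the later days that sum lay between 12.01 and 13.00 in the feeder arm and between 11.91 and 12.01 in the feeder-free arm. Dcn and Lum lay below 8.10 on both day 0 arrays, and Postn did so without feeders. The arrays carry rat probes and the feeders were mouse cells. The labels do not say whether feeders were removed before RNA was taken, and the part of fibroblast RNA in the other differences was not tested. In bulk RNA fewer cells of a type and less RNA per cell cannot be told apart. Of the 14 passing genes 13 also passed in the contrast, all but Twist2, against 44.2% of all higher genes, with the day 0 values used in both.

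**Figure D3:**
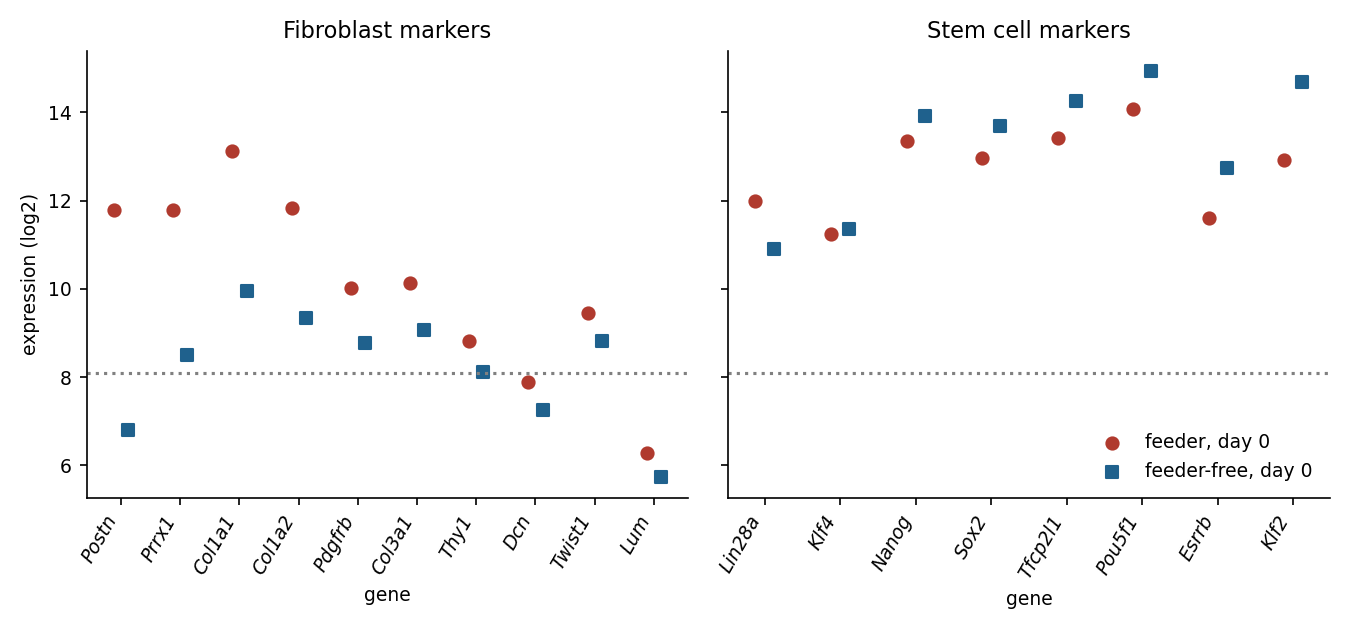
Expression (log2, vertical axis) of fibroblast markers (left) and stem cell markers (right) on the feeder (red circles) and feeder-free (blue squares) array of day 0. The dotted line at 8.10 bounds 95% of receptor gene values. All 10 fibroblast markers are higher on feeders, whereas 7 of 8 stem cell markers are lower there.

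Naive pluripotency genes that passed were mostly lower on feeders. Of 14 measured 4 passed lower and 1 higher, against 3.41% and 3.93% of all genes, and the median difference was -0.64, against -0.06 for all genes. Klf2, a transcription factor that stabilises the naive state in the mouse, stood at 12.91 on feeders and 14.69 without them (-1.78 ± 0.17, limma adjusted p = 4.49e-06). Esrrb, an orphan nuclear receptor of the naive network, had 11.60 on feeders and 12.73 without them (-1.13 ± 0.14). Nr5a2 had 8.31 on feeders and 9.70 without them (-1.39 ± 0.16), and Dppa3 had 13.55 on feeders and 14.64 without them (-1.09 ± 0.16). All 5 rows of Dppa3 differed by at least 1 in the same direction. Klf5 differed by 0.03 ± 0.14 and Klf4 by -0.12 ± 0.14, where a second, dimmer Klf4 row differed by 0.70. Sox15, a relative of Sox2, was the 1 gene that passed higher on feeders, at 10.46 on feeders and 8.99 without them.

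Klf2, Esrrb and Dppa3 did not pass in the contrast with days 17 and 32. For Dppa3 the difference at those days was -1.42 and -1.22. Among the genes shared by pluripotent states Fgf4, the ligand by which pluripotent cells drive their own ERK pathway, had 11.47 on feeders and 13.58 without them (-2.10 ± 0.14). Lin28a, which blocks let-7 maturation, was higher, at 11.98 on feeders and 10.91 without them (1.08 ± 0.15). Sox2 had 12.97 on feeders and 13.68 without them (-0.71 ± 0.14) and did not pass on size.

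Of the primed epiblast genes Lefty1 and Dnmt3b passed. Lefty1, a secreted inhibitor of Nodal, stood at 13.32 on feeders and 9.51 without them (3.81 ± 0.19, limma adjusted p = 1.39e-08). Nodal itself had 12.95 on feeders and 13.54 without them (-0.59 ± 0.14). Dnmt3b, a de novo DNA methyltransferase, had 11.28 on feeders and 10.20 without them (1.07 ± 0.16). Other members of the list were lower on feeders without passing, among them Dnmt3a (-0.91 ± 0.15) and Cdh2 (-0.83 ± 0.16). The median difference of the list was 0.19, against -0.06 for all genes. Fgf5, the common marker of the primed state, lay below 8.10 on both arrays, at 7.90 on feeders and 7.998 without them. Lefty1 and Dnmt3b were 2 of 13 measured genes, against 3.93% of all genes higher, and 0 passed lower.

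Foxq1 and Gata4, transcription factors of the hypoblast list, were lower on feeders before conversion began. Of 11 measured regulators 2 passed lower and 0 higher, against 3.41% and 3.93% of all genes, a count too small to describe the list, whose median difference was -0.32. Foxq1 stood at 8.75 on feeders and 10.79 without them (-2.04 ± 0.14, limma adjusted p = 3.54e-07). Gata4 had 8.10 on feeders, at the receptor gene level, and 9.79 without them (-1.69 ± 0.14). Gata6 and Sox17 differed by -0.85 ± 0.15 and -0.91 ± 0.15 and did not pass on size. Pdgfra, the receptor for the PDGF of the conversion medium, did not differ beyond the spread of the pairs (-0.01). Among 14 measured genes for matrix or uptake in extraembryonic endoderm 2 passed higher and 1 lower. Srgn, a proteoglycan core protein, was the lower one, at 8.08 on feeders and 9.75 without them. Dab2, an endocytic adaptor, differed by 1.62 ± 0.15, and Sparc, a matrix protein, had 14.73 on feeders and 13.23 without them. Sparc is also abundant in fibroblasts.

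Cdx2, a homeobox gene of the trophoblast and the posterior embryo and a target of Wnt signalling, had 13.14 on feeders and 11.14 without them (1.99 ± 0.14, limma adjusted p = 3.64e-07). At days 17 and 32 its difference had the opposite sign, at -1.33 and -1.06. The other 11 measured trophoblast genes did not pass. Of 15 measured Wnt targets 1 besides Cdx2 passed: Axin2, a negative regulator of the pathway, had 11.39 on feeders and 12.43 without them (-1.04 ± 0.14). Its difference was -0.99 after a further quantile normalization, which takes it below the threshold. Lef1 differed by 0.37 ± 0.16. CHIR99021 was at 3 µM in both media. No gene of 14 for mesendoderm and mesoderm passed. Of 9 measured neuroectoderm genes 3 passed higher, against 3.93% of all genes, among them Ncam1 at 10.82 on feeders and 8.75 without them. Another of the 3, Msi1, differed by 1.00 and fell short of the threshold after centring (0.96). The neuroectoderm list ran from -0.58 for Pax3 to 2.07 for Ncam1, with a median of 0.15, against -0.06 for all genes. Pax6 lay below 8.10 on both arrays, at 7.35 on feeders and 7.39 without them. As 3.93% of all genes passed higher and 3.41% lower, the trophoblast and Wnt counts are too small to describe those lists.

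Several imprinted genes were higher on feeders. Of 18 measured 4 passed higher and 1 lower, against 3.93% and 3.41% of all genes. All 5 also passed in the contrast, against 40.2% of all genes that passed at day 0. Igf2, a fetal growth factor, had 12.41 on feeders and 9.07 without them (3.34 ± 0.15, limma adjusted p = 4.36e-09), and Grb10, an adaptor that restrains insulin and IGF signalling, had 11.08 on feeders and 8.91 without them (2.17 ± 0.15). Nnat differed by 2.38 ± 0.16 and the long noncoding RNA gene Meg3 by 1.76 ± 0.16, whereas Sgce differed by -1.47 ± 0.14. For H19 the row used differed by 0.24 and a second row by 1.68. Among 24 cell cycle genes 2 passed higher and 0 lower, against 3.93% and 3.41% of all genes, a count too small to describe the list. Ccnd2, cyclin D2, had 12.61 on feeders and 8.75 without them (3.85 ± 0.17), and E2f1 had 10.86 on feeders and 9.77 without them (1.08 ± 0.16).

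Genes of epithelial junctions went both ways, with 2 of 15 passing higher and 3 lower, against 3.93% and 3.41% of all genes. Epcam, an epithelial adhesion molecule, had 11.43 on feeders and 13.00 without them (-1.57 ± 0.15), and Ocln, occludin of the tight junction, had 11.76 on feeders and 12.92 without them (-1.15 ± 0.16). The remaining lower gene, Cldn4, differed by -1.01 and fell short of the threshold after a further quantile normalization (-0.95). The claudin gene Cldn6 and the keratin gene Krt18 were higher by 1.33 ± 0.16 and 1.21 ± 0.15. Cdh1, E-cadherin, differed by -0.66 ± 0.15 and did not pass on size. Among 15 integrins and laminin receptors 2 passed higher and 0 lower, against the same shares of all genes. Itga5, a subunit of the fibronectin receptor, had 10.76 on feeders and 8.94 without them (1.83 ± 0.15), and Sdc2 differed by 1.24 ± 0.15. The laminin receptor subunits Itga6 and Itgb1 differed by 0.26 ± 0.14 and 0.14 ± 0.14.

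The next lists had few passing members, and beside 3.93% of all genes higher and 3.41% lower their counts are given for the named genes, not as results about the lists. In the LIF and STAT3 list 1 of 15 genes passed, Osmr, whose values of 7.99 on feeders and 6.75 without them both lay below 8.10. The receptor genes Lifr and Il6st differed by -0.66 ± 0.15 and -0.72 ± 0.14. Of 25 interferon and antigen presentation genes 3 passed higher, Ifitm3 (2.40 ± 0.17), Usp18 (1.98 ± 0.14) and Irf1 (1.15 ± 0.16). Of 17 genes of the amino acid stress response 3 passed higher, among them the stress-induced factor gene Atf3 (1.74 ± 0.16). Of 20 glycolysis genes 2 passed lower, Hk2, hexokinase 2 (-1.59 ± 0.15), and Ldhb (-1.11 ± 0.17). Of 18 DNA methylation and germline genes Dnmt3b passed higher and Piwil2, a piRNA pathway gene, lower (-1.32 ± 0.15). Cholesterol synthesis had 0 of 14 past the threshold in either direction, and 9 of the 14 with an adjusted p under 0.05 in limma, 3 higher and 6 lower, against 31.5% of all genes at that threshold, 14.7% higher and 16.9% lower.

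The 12 genes with the largest positive differences, among those with at least 1 array above 8.10, lay between 3.60 and 5.88, and no pair of replicates differed by more than 0.65 in any of them. Vim, which encodes the intermediate filament protein vimentin, led with 14.57 on feeders and 8.69 without them (5.88 ± 0.14, limma adjusted p = 2.04e-11). Vim was high in both arms during conversion and lay between 14.30 and 14.49 in the feeder arm and between 13.66 and 14.62 in the feeder-free arm on days 7 to 32. Bgn, biglycan, had 13.73 on feeders and 8.14 without them, and Thbs1, thrombospondin 1, had 13.29 on feeders and 8.58 without them. Trh, the precursor gene of thyrotropin-releasing hormone, had 13.19 on feeders and 8.27 without them (4.92 ± 0.20). Timp2, an inhibitor of matrix metalloproteinases, had 13.20 on feeders and 9.52 without them, and Fkbp10, a chaperone of collagen, had 12.38 on feeders and 8.78 without them. Cav1, caveolin, had 11.14 on feeders and 7.18 without them, and Fndc3c1 had 12.07 on feeders and 8.16 without them. Postn, Ccnd2, Lefty1 and Dusp6 complete the 12.

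The 12 genes with the largest negative differences lay between -2.80 and -3.85, with no pair difference above 0.48. Cpm, carboxypeptidase M, led with 8.56 on feeders and 12.41 without them (-3.85 ± 0.15, limma adjusted p = 1.75e-09), ahead of Id1. Pramel6, a gene of the Prame family that is active in naive mouse stem cells, had 10.19 on feeders and 13.74 without them (-3.55 ± 0.14). The carbonic anhydrase genes Car14 and Car2 had 8.93 and 10.68 on feeders and 12.09 and 13.54 without them. Cpne8, a copine, had 10.06 on feeders and 13.54 without them, and Adam23 had 9.62 on feeders and 12.87 without them. The cytochrome gene Cyp2s1 had 8.63 on feeders and 12.03 without them, the meprin gene Mep1a 7.03 on feeders and 10.31 without them, and Septin4 10.14 on feeders and 13.02 without them. C3h15orf48 and Ppp1r14c, at -2.93 ± 0.22 and -2.80 ± 0.15, complete the 12.

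These 24 genes were chosen for the size of their day 0 difference, so smaller values on other arrays follow in part from that choice, and all 24 passed in the contrast with the sign of day 0. Of the 1064 genes 392 (36.8%) differed by less than 0.5 between the arms on both days 17 and 32, and 172 (16.2%) still differed by at least 1 with the same sign on both. Of all genes, 3.75% differed by at least 1 in either direction on day 17 and 3.47% on day 32. The median gene differed by 0.21 and 0.20 in size on those days, and the share of all genes within 0.5 on both was not taken. For Id1 the later differences were 0.13 and -0.15, and for Dusp6 they were 0.43 and 0.47. Cav1 differed by 2.11 and 2.19 on these days and Pramel6 by -1.49 and -2.14. Id2 had the opposite sign on these days, at 1.13 and 0.84. Cldn4, a claudin gene, also changed sign, with -1.01 at day 0 against 2.74 and 2.49 later. Across genes the day 0 difference correlated with that of day 7 at 0.362, day 17 at 0.536 and day 32 at 0.513, where all points share the arm's arrays and genes are not independent replicates.

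**Figure D4:**
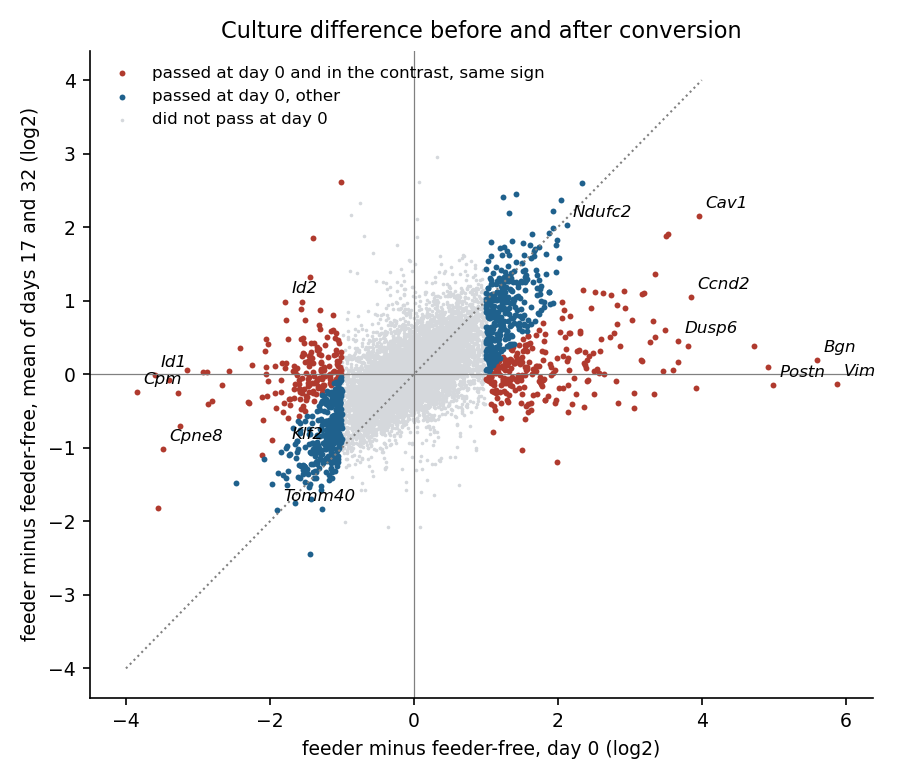
Feeder minus feeder-free difference of every gene at day 0 (horizontal axis, log2) and its mean over days 17 and 32 (vertical axis, log2). Red points passed at day 0 and in the contrast with the same sign (425 genes), blue points passed at day 0 otherwise, and grey points did not pass. Vim, Bgn, Postn, Id1 and Cpm lie near the horizontal line, while Tomm40 and Ndufc2 lie near the dotted line of equal differences.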

How the data were processed

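The authors deposited a single table of RMA values on the log2 scale, with RMA named in the submitters' processing notes (per the labels). The version and software are not given in the sources used here. The column of the feeder-free day 0 array had a median of 8.97. RMA draws low values together, so differences of dim genes are understated; precision is limited by the number of arrays. Of 29214 rows 15310 carried 1 symbol in the platform annotation, 323 several and 13581 none, the last 2 kinds entering only an alternative. For 527 genes with several rows the brightest row on average was used, giving 14506 genes, with no filter on dim ones.

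Groups were taken from the labels. A limma 3.58.1 fit in R 4.3.3 (lmFit and eBayes) gave each of the 8 groups of culture and day a mean; the feeder-free pairs supply its 3 residual degrees of freedom. P values were adjusted over all genes by the Benjamini-Hochberg method. The calculation was tested on simulated data. The comparison, the 23 gene lists (355 distinct measured genes) and the tests were chosen with earlier results of these data known. Named were the 12 largest differences each way among passing genes with 1 array above the receptor level (1239 receptor genes), up to 5 passing genes per list or the 2 largest where none passed, and 17 always reported genes. The text prints a part of them, and others it names from the lists were chosen after their values were seen. Promoter sequences are from RefSeq (GRCr8) and matched by symbol, 4 of 4. The alternatives concerned dim genes, rows, normalization, eBayes options, the threshold, a replicate block and single arrays left out. Figures were drawn with matplotlib 3.10.9.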

Additional observations from a re-analysis of the deposited data

Results flagged for a closer look

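The contrast of day 0 with the later days passed in 4.58% of all genes. The 39 named genes counted here are the 24 largest differences and the always reported genes, without those named only from the lists. The 24 had been chosen for the size of their day 0 difference, which the contrast uses again. All 24 are among those given here, so the count says little beyond that choice. In 30 of 39 named genes the culture difference at day 0 was other than the mean of the differences at days 17 and 32, by a limma test of that contrast (adjusted p under 0.05 and at least 1 on the log2 scale), with 1 feeder array each day. The values here are the day 0 difference minus the later one. For Vim the value was 6.01. Among matrix and fibroblast genes the values were Bgn 5.41, Postn 5.14, Thbs1 4.33, Fkbp10 3.54, Timp2 3.51, Col1a1 2.99, Col1a2 2.46 and Col3a1 1.18. Vim, Timp2 and Fkbp10 rose in the feeder-free arm, where Timp2 had 9.52 at day 0 and means of 14.6 and 14.3 on days 17 and 32. Postn instead fell in the feeder arm, from 11.79 at day 0 to 6.66 and 6.87 on those days. Among signalling and cell cycle genes the values were Lefty1 3.42, Dusp6 3.22, Etv4 2.88 and Ccnd2 2.81. The other genes with a positive contrast were Trh 4.82, Fndc3c1 4.10 and Cav1 1.81.

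A negative contrast was found for the BMP targets Id1 -3.59 and Id2 -2.78 and for the hypoblast factor Gata4 -1.73. The remaining genes of this count were Pramel6 -1.74, Ppp1r14c -2.43, Car2 -2.46, Cpne8 -2.47, Adam23 -2.54, Septin4 -2.91, C3h15orf48 -2.95, Mep1a -3.02, Car14 -3.22, Cyp2s1 -3.32 and Cpm -3.61. Genes named only from the lists passed in both directions too, among them Cldn4 (-3.62), Dlx5 (-2.39) and Igf2 (3.60). Pou5f1, Nanog, Sox2, Egr1, Spry4, Id3, Axin2, Gata6 and Thy1 did not pass in this contrast. Taken against day 7 in place of days 17 and 32, the contrast of Thbs1, Lefty1 and Cav1 did not pass. No sample group held enough arrays for a test of outlying samples.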

How the results depend on the processing

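Leaving out each of the 6 paired feeder-free arrays changes only the spread at day 0: the count of passing genes stayed between 1063 and 1064. The contrast with days 17 and 32 then had between 662 and 678. With the adjusted p alone 4575 genes were counted at day 0, 2128 higher and 2447 lower, and 1843 in the contrast, 834 higher and 1009 lower. With all rows of the table, named or not, 2072 rows passed at day 0, 1014 higher and 1058 lower, and 1006 in the contrast, 540 of them higher, the larger number of rows tested being part of that. The other alternatives run at day 0 (dim genes left out, mean of rows, quantile normalization, centring, eBayes with trend and robust, size alone, and size against the largest pair difference) gave between 992 and 1072 genes. The excess of higher over lower genes depended on scaling: 627 higher and 445 lower passed after quantile normalization, and 522 higher and 550 lower after centring. Among named genes Axin2 and Cldn4 fell short of the threshold after quantile normalization (-0.99 and -0.95) and Msi1 after centring (0.96).

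Feeder-free arrays share replicate numbers across days. The deviations of same-numbered arrays correlated at 0.03 (days 7 and 17), -0.20 (days 7 and 32) and -0.10 (days 17 and 32). The labels do not say whether such arrays share more than a number. With a replicate block 1070 genes passed at day 0, 561 higher and 509 lower, of which 1031 had passed without it, and 669 passed in the contrast. Msi1 (0.96) and Cldn4 (-0.99) then fell short.

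The contrast was also taken against single later days, a choice made after seeing the data. Against day 7 alone 1614 genes passed, 896 higher and 718 lower, and the sign turned for Pou5f1 (-1.16), Gata4 (1.06) and Gata6 (1.98). Thbs1 (0.51), Cav1 (0.69) and Lefty1 (0.86) fell short, and Nanog (-3.66), Sox2 (-2.62) and Axin2 (-1.30) passed. The cause was not tested. No alternative gives the day 0 difference a replicate of its own.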

Other observations

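The following genes with nearly constant differences between the arms were chosen after their values were seen. Ndufc2, a respiratory chain subunit gene, differed by 2.12, 2.07, 1.94 and 2.13 on days 0, 7, 17 and 32. Tarbp2, a partner of Dicer, differed by 1.32, 1.25, 1.27 and 1.26 on these days. In the other direction the splicing factor gene Slu7 differed by -1.35, -1.27, -1.31 and -1.34, and the translation factor gene Eif3a by -1.39, -1.22, -1.23 and -1.20. The 4 feeder-arm and 7 feeder-free arrays did not overlap for any of these 4 genes, which follows largely from how they were chosen. Cntf, a neurotrophic factor gene, differed by 1.28, 1.25, 1.25 and 1.42 on the same days.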
